A study of Gallus gallus with 13 samples.

Results

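The regions described here were called as bound in the deposited peak lists of both limb malformation mutants of HOXD13, Q317K and Q317R, and in the lists of neither wild-type HOXD13 nor PITX1. Peaks of the 4 lists that overlapped by at least 1 bp were merged, which gave 99237 regions. Of these, 3042, or 3.07%, held peaks of Q317K and Q317R and none of the other lists. The members were thus chosen by the measured peak calls themselves, and each factor had 1 list, so differences are given as values without a test. Where a share has an interval in brackets, it is a 95% exact (Clopper-Pearson) interval that covers counting error over regions or peaks and not the spread between cultures.

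The cultures were chicken micromass cultures, dense droplets of limb bud mesenchyme in which cartilage forms, prepared from embryos of Hamburger-Hamilton stage 24 and harvested on day 9. Cells received avian RCASBP(A) retrovirus carrying mouse Hoxd13 with a triple FLAG tag, as Q317K, as Q317R or as wild type (HOXD13 wt), or chicken PITX1 wt with the same tag, and chromatin was precipitated with the FLAG M2 antibody. The tagged protein was carried by a virus in all cells that took it up, beside the chicken embryo's own HOXD13 and PITX1, which the antibody to FLAG is not directed against. The 13 samples were 4 precipitations, their 4 inputs and 5 RNA libraries, of which the last came from empty vector cultures and from cultures with each of the 4 viruses.

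HOXD13 is a HOX factor of the distal limb, where it is needed for the digits. Its homeodomain reads DNA through a recognition helix, and the glutamine named in both mutants lies in that helix at a residue known to choose the bases beside the TAAT core. PITX1, a factor of the hindlimb, has a lysine there, as Bicoid does in Drosophila, and such homeodomains prefer TAATCC. Q317K thus carries the residue of PITX1, while Q317R carries an arginine, which neither wild-type factor has at that position. Sequences under the peaks were not analysed here, so none of these preferences was measured.

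The lists differed in length and threshold. They held 25036 peaks for Q317K, 21396 for Q317R, 34267 for HOXD13 wt and 40881 for PITX1, and their lowest −log10 p values were 39.4, 36.7, 52.1 and 42.2 in that order. Peak names are numbered along the genome, and most numbers are not in the lists. Between the listed HOXD13 wt peaks on either side of a region of both mutants, a median of 15 peak numbers were unused, and in 3 of 3036 cases none was. For PITX1 the median was also 15, with none unused in 25 of 3038 cases. Unused numbers could fall anywhere between the 2 listed peaks, so they do not place an unlisted peak at a region. Of all numbers up to the largest, 10.6% were listed for HOXD13 wt and 13.6% for PITX1. The mutant lists held a smaller share of their numbers, 7.83% for Q317K and 6.11% for Q317R. Absence from a list is absence above its threshold, and binding below it was not tested. In the RNA libraries all 6 cartilage markers looked up were present in every culture. The lowest was the matrilin MATN1 at 16.4 RPKM (reads scaled to transcript length and library size) in the PITX1 culture. In the empty vector MATN1 stood at 250 RPKM. MATN1 stood below the epidermal KRT14 in the PITX1 culture, where KRT14 was at 23.1 RPKM. The same held in the Q317K culture, with MATN1 at 19.7 and KRT14 at 23.5 RPKM. COL2A1, the main cartilage collagen, stood at 1983 RPKM in Q317K, 11296 in Q317R, 4279 in HOXD13 wt and 3437 in PITX1 cultures, against 15370 in the empty vector. COL9A1, a further cartilage collagen, stood at 126 RPKM in Q317K, 805 in Q317R, 186 in HOXD13 wt and 158 in PITX1 cultures, against 608 in the empty vector. MYOG, a muscle factor, stood at 5.96 RPKM in Q317K and 5.32 in Q317R, against 8.59 in the empty vector. Of markers of other cell types, the blood gene HBA and the endothelial gene PECAM1 stood at 6.00 RPKM or less in every culture, the epidermal KRT14 at 17.3 to 23.5, and the blood gene HBE at 747 in the PITX1 culture and 7.43 or less in the others. The muscle MYH1, the endothelial CDH5 and the epidermal KRT5 were also looked up and had no transcript among the RNA values. The chicken HOXD13 row stood at 36.8 RPKM in Q317K, 53.7 in Q317R and 63.4 in HOXD13 wt, against 16.6 in the empty vector. In the PITX1 culture this row stood at 13.1 RPKM. The HOXD13 viruses carried the mouse gene, and whether their RNA was counted in the chicken row was not tested. The chicken PITX1 row stood at 10233 RPKM in the PITX1 culture, against 64.5 in the empty vector. Gene names were not assigned to regions, since the sources used here do not name the genome build behind the peak positions.

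**Figure D1:**
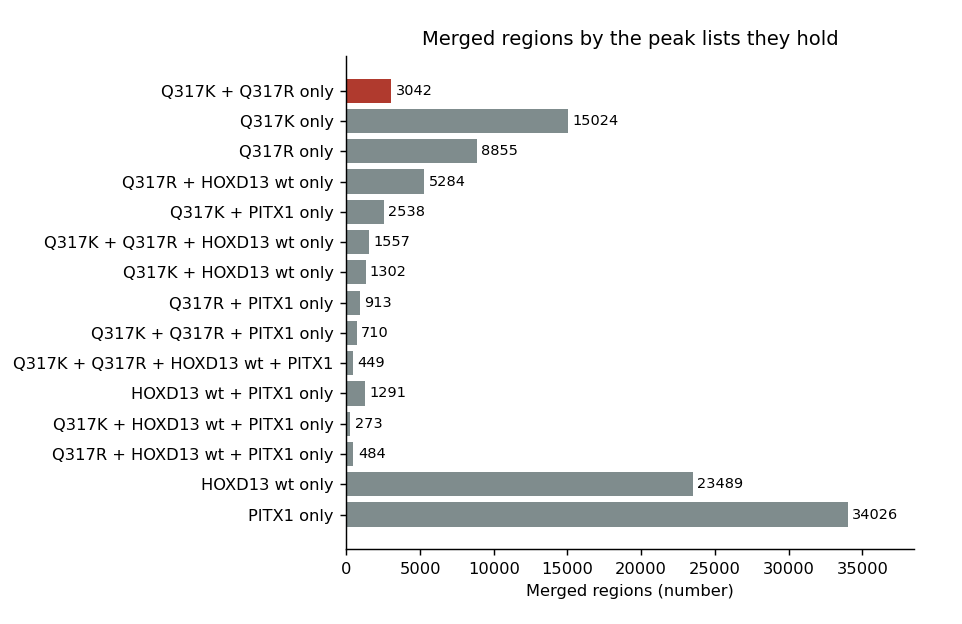
Bars give the number of merged regions (x axis) for each combination of peak lists (y axis), with the regions of both mutants only in red. They numbered 3042, more than the 2538 of Q317K and PITX1 only and fewer than the 5284 of Q317R and HOXD13 wt only. With all lists cut at a −log10 p of 52.1, Q317K and PITX1 only had more regions, 1498 against 1316.

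Most places where the mutants met lay outside both wild-type lists, as did most peaks of each mutant. Of 5758 regions that held peaks of both mutants, 3042, or 52.8% (51.5 to 54.1), held no other peak, 1557 also held HOXD13 wt, 710 also held PITX1 and 449 held both. The regions of both mutants only took in 12.2% (11.8 to 12.6) of all Q317K peaks and 14.2% (13.8 to 14.7) of all Q317R peaks. In the lists as deposited this was the largest shared class for Q317K. It was ahead of the 10.2% of Q317K peaks in regions with PITX1 only and the 5.26% in regions with HOXD13 wt only. For Q317R it came second, behind the 24.8% of its peaks in regions with HOXD13 wt only. The order for Q317K depended on the thresholds. With all lists cut at a −log10 p of 52.1, 1498 regions held Q317K and PITX1 only, against 1316 of both mutants only. With a fold of at least 10 the counts were 595 and 447, and with lists of equal length 1448 and 3450. The remaining peaks lay mainly alone, with 60.01% of Q317K and 41.4% of Q317R peaks in regions of that mutant only. Together with the peaks in regions of both mutants only, these made up most of each mutant's list. Lying outside both wild-type lists was thus not particular to places where the mutants met.

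Nearly every region of both mutants was a simple pair. One peak of each mutant made up 3021 of the 3042 regions, 16 held 2 Q317K peaks and 5 held 2 Q317R peaks. The regions were 838 bp wide at the median, from 356 to 3681 bp. Their Q317K peaks had a median width of 661 bp and their Q317R peaks 685 bp, against 564 bp for peaks in regions of Q317K only and 583 bp for those of Q317R only. The overlap of the 2 peaks was 540 bp at the median, against the median region width of 838 bp, so the regions also held DNA covered by 1 peak alone. It took in 99.8% of the shorter peak at the median and under 50% of it in 23 regions. The Q317K peak lay inside the Q317R peak in 822 regions, the Q317R peak inside the Q317K peak in 689, and the peaks were staggered in 1531. Widths of the 2 peaks were correlated across regions (Spearman's rho 0.52, Pearson's r 0.46, n = 3042), which is a description of regions that share both libraries.

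Summits, the positions of highest signal within a peak, were not themselves used to choose the regions. They lay near the middle of the peaks, at a median of 49.4% of the peak for Q317K and 49.5% for Q317R. The rule requires the peaks to overlap, which limits how far apart summits can lie, so their distance is not independent of the rule. The Q317K and Q317R summits were 36 bp apart at the median, with quartiles of 14 and 84 bp. They were within 50 bp in 1836 regions, or 60.4%, within 100 bp in 2388, or 78.5% (77.0 to 79.9), and within 200 bp in 2662, or 87.5%. Over all 5713 regions with overlapping Q317K and Q317R peaks, including these, 73.7% had summits within 100 bp. The Q317K summit lay at the lower position in 1525 regions, at the higher in 1489 and at the same base in 28. Fragments were selected at 300 to 450 bp, so most of these distances are well under the length of a fragment. A tail of 299 regions, or 9.83%, had summits over 300 bp apart, up to 2194 bp.

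The same distances in the other classes of 2 lists fell into a graded order. In regions of Q317R and HOXD13 wt only, the summits were 35 bp apart at the median and 79.96% (78.9 to 81.03) were within 100 bp, a share whose interval overlaps that of the 2 mutants. In regions of Q317K and PITX1 only, the median was 123 bp and 44.6% (42.7 to 46.6) were within 100 bp. Q317K and HOXD13 wt, in regions of these only, had a median of 196 bp and 33.6% (31.1 to 36.3). Q317R and PITX1 stood at 285 bp and 23.0%, and HOXD13 wt and PITX1 at 375 bp and 12.5%. Q317R summits thus lay as near to Q317K summits in one class as to wild-type summits in another, while Q317K summits lay farther from both wild-type factors.

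Peak width sets how far apart summits can lie, and the classes differed in width. Among pairs whose longer peak was 400 to 600 bp wide, the 2 mutants had summits 21 bp apart at the median and 94.3% (92.4 to 95.8) within 100 bp (n = 783). Q317R and HOXD13 wt had 24 bp and 95.4% (94.2 to 96.5; n = 1449). Q317K and PITX1 had 69 bp and 62.3% (54.8 to 69.3; n = 183), and Q317K and HOXD13 wt 77 bp and 56.5% (49.8 to 63.02; n = 230). In this band, as over all widths, the medians of the 2 mutants and of Q317R with HOXD13 wt were within 3 bp of each other and below those of the classes that pair Q317K with PITX1 or with HOXD13 wt. This band was chosen after the data were seen.

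**Figure D2:**
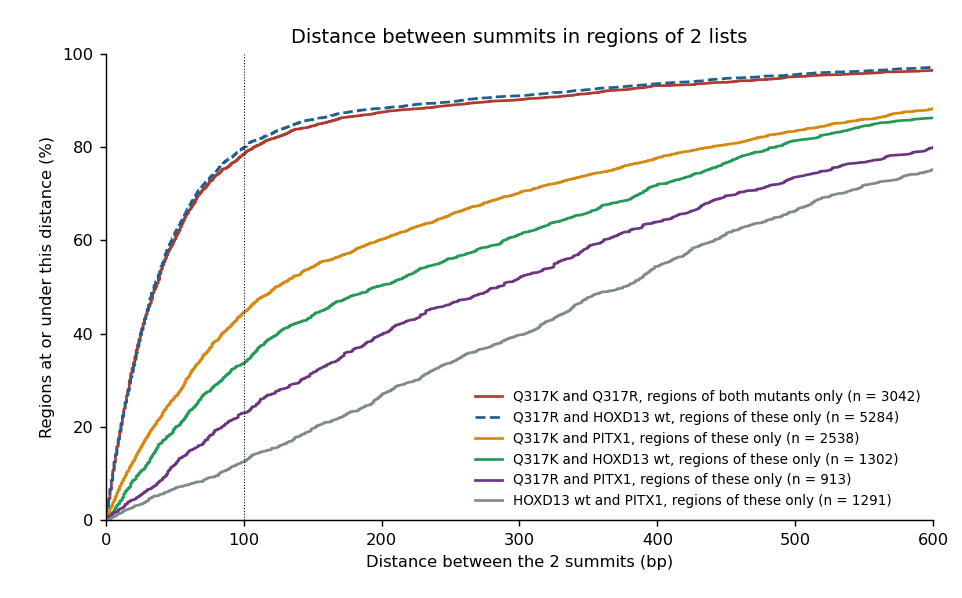
Curves give the share of regions (y axis, percent) whose 2 summits lie at or under a distance (x axis, bp), for each class of exactly 2 lists, and the dotted line marks 100 bp. The curve of both mutants runs with that of Q317R and HOXD13 wt, at 78.5% and 79.96% within 100 bp, above the other 4 pairs.

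Regions that also held HOXD13 wt gave a further comparison of summits within the same DNA. In regions of the 3 HOXD13 forms without PITX1, the median distance between summits of overlapping peaks was 48 bp for Q317K and Q317R (n = 1539), 48 bp for Q317R and HOXD13 wt (n = 1538) and 100 bp for Q317K and HOXD13 wt (n = 1508). Taking the strongest peak of each form in all 1557 of these regions, the closest pair of summits was Q317K and Q317R in 668 regions, or 42.9% (40.4 to 45.4), Q317R and HOXD13 wt in 637, or 40.9% (38.5 to 43.4), and Q317K and HOXD13 wt in 244, or 15.7% (13.9 to 17.6). In regions of both mutants with PITX1, the mutants' summits were 50 bp apart at the median, those of Q317K and PITX1 167 bp and those of Q317R and PITX1 219 bp. Regions of both mutants only therefore had the shortest median distance between the mutants' summits of the classes that hold both, at 36 bp, and their regions were also the narrowest of these classes, at 838 bp against 1124 bp with HOXD13 wt, 1446 bp with PITX1 and 1795 bp with both. The comparison was repeated among pairs whose longer peak was 400 to 600 bp wide. The mutants' median summit distance was then 21 bp in regions of both mutants only and 26 bp with HOXD13 wt (n = 219). It was 21 bp with PITX1 (n = 41) and 30 bp with both (n = 15). In this band regions of both mutants only were thus level with those with PITX1, on few pairs, and lower than those with HOXD13 wt.

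Strength is given as the authors' fold enrichment for each peak, and it bears on membership, since a stronger peak passes a list's threshold more easily. In the regions of both mutants only, Q317K fold had a median of 9.07 (quartiles 7.66 and 11.5, range 5.15 to 32.6) and Q317R fold one of 7.75 (quartiles 6.80 and 9.30, range 3.87 to 20.4). Peaks in regions of Q317K only had a median of 8.04 and those of Q317R only 7.21. With HOXD13 wt added, the median was 9.16 for Q317K and 8.71 for Q317R. Q317R peaks shared with HOXD13 wt only had a median of 7.79, near the 7.75 of those shared with Q317K only.

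Ranks within a list allow the mutants to be set side by side, since fold depends on each library. At the median, peaks in these regions ranked in the first 36.1% of the Q317K list and the first 44.7% of the Q317R list by −log10 p. Of the strongest 10% of Q317K peaks, 23.0% lay in regions of both mutants only, compared with 7.55% of the weakest 10%. For Q317R the shares were 17.9% and 11.5%. The share of Q317K peaks in regions of the 3 HOXD13 forms was likewise higher among the strongest 10%, at 11.5%, than among the weakest, at 3.32%. In regions with PITX1 only it was 10.5% among the strongest and 9.95% among the weakest. The strongest 10% of Q317R peaks held as many in regions of both mutants only as in regions of the 3 HOXD13 forms, 17.9% each, while in the weakest 10% the shares were 11.5% and 4.02%.

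**Figure D3:**
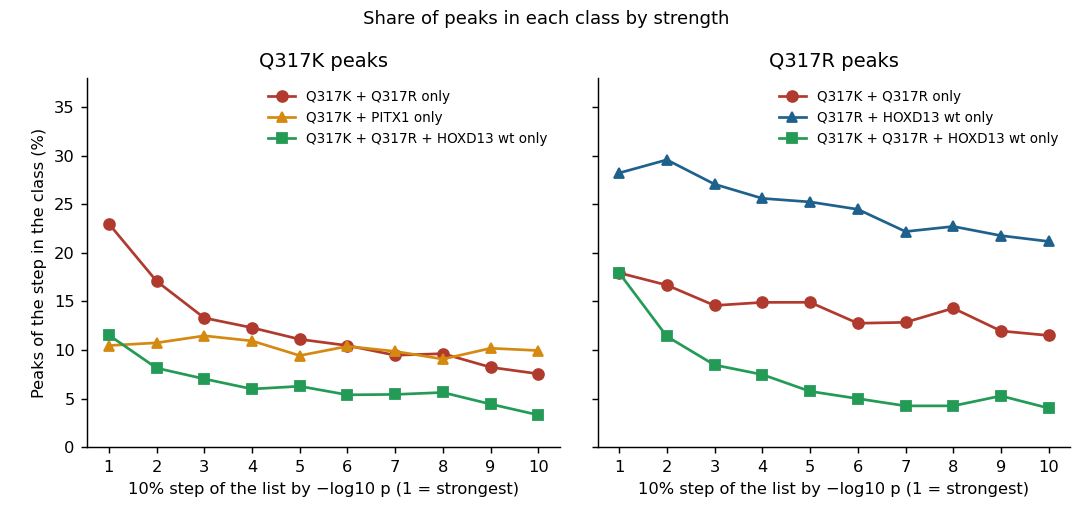
Each point is the share of peaks (y axis, percent) in successive steps of 10% of a list, ordered by −log10 p with the strongest at 1 (x axis), that lie in a class of regions; Q317K peaks are on the left and Q317R peaks on the right. The share in regions of both mutants only is 23.0% in the first and 7.55% in the last step of the Q317K list, and 17.9% and 11.5% in the Q317R list.

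Strength in one mutant was weakly correlated with strength in the other. Across the 3042 regions, Q317K and Q317R fold had a Spearman's rho of 0.16 and a Pearson's r of 0.21, a description of regions that share both libraries and were cut at both lists' thresholds. The Q317K fold was higher in 2120 regions, or 69.7%, with a median ratio of Q317K to Q317R fold of 1.16, but the Q317K list also had the higher median fold over all its peaks, 8.24 against 7.54. By rank within the list the Q317K peak stood better in 1706 regions, or 56.1% (54.3 to 57.9). Both peaks were in the strongest 10% of their lists in 125 regions, or 4.11% (3.43 to 4.88). The share was 5.16% over all regions with overlapping mutant peaks and 6.69% (5.50 to 8.06) in those of the 3 HOXD13 forms. It was 4.58% (3.15 to 6.40) in regions of both mutants with PITX1 and 8.08% (5.69 to 11.1) in those of all 4 lists. In 578 regions of both mutants only, or 19.0% (17.6 to 20.4), both peaks were in the weaker 50% of their lists. That share was not computed for other regions with peaks of both mutants.

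**Figure D4:**
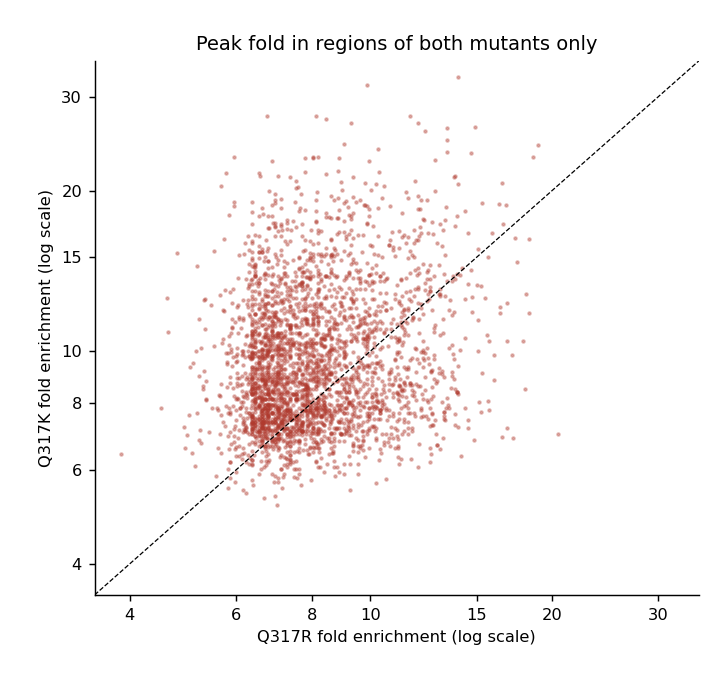
Each point is 1 of the 3042 regions of both mutants only, with the fold enrichment of its Q317R peak on the x axis and of its Q317K peak on the y axis, both on log scales; the dashed line marks equal fold. Points spread widely around the line, with the Q317K fold higher in 2120 regions, and crowd at the low end, where the lists stop.

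The regions strongest in both lists were ordered by the worse of their 2 ranks. The first lay on chromosome 3 from 82341834 to 82343477, with a fold of 24.4 in Q317K (rank 63) and 18.9 in Q317R (rank 40), and summits 19 bp apart. The second, on chromosome 1 from 29199967 to 29200600, had folds of 23.1 in Q317K and 18.6 in Q317R, ranks of 95 and 51, and summits 81 bp apart. On chromosome 2 from 24143373 to 24144766 the folds were 20.6 in Q317K and 16.5 in Q317R, with summits 21 bp apart. These 3 regions had their nearest listed HOXD13 wt peak 9423, 1273 and 3563 bp away.

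The next 7 in that order were spread over 5 chromosomes. They lay on chromosome 3 from 103582659 to 103583564, chromosome 17 from 5906049 to 5906484 and from 9794312 to 9796290, chromosome 5 from 9643158 to 9644110, chromosome 9 from 2806910 to 2807980, and chromosome 2 from 47814191 to 47815449 and from 97251607 to 97252645. Their folds ran from 17.3 to 26.4 in Q317K and from 10.3 to 16.8 in Q317R, and their summits were 2 to 70 bp apart. The last of them had a listed HOXD13 wt peak 81 bp from its edge, while for the first on chromosome 17 the nearest was 47791 bp away. All 10 therefore had summits within 100 bp of each other.

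Some regions were near the top of one list and in the weaker 50% of the other. On chromosome 3 from 55310561 to 55311934 the fold was 27.7 in Q317K (rank 13) and 6.75 in Q317R (rank 16734), a ratio of 4.10, with summits 25 bp apart. The next highest ratios of Q317K to Q317R fold were 3.88 on chromosome 11 from 10432680 to 10433281 and 3.74 on chromosome 4 from 66620851 to 66622336, where summits were 29 and 507 bp apart. The lowest ratio, 0.34, was on chromosome 2 from 140148487 to 140149940, with a fold of 7.01 in Q317K (rank 24549) and 20.4 in Q317R (rank 18) and summits 12 bp apart. Ratios of 0.40 and 0.42 followed on chromosome 2 from 31859814 to 31860512 and from 13857683 to 13858334, with summits 16 and 34 bp apart. Among all 3042 regions, 185, or 6.08% (5.26 to 6.99), paired a Q317K peak of the strongest 10% with a Q317R peak of the weaker 50%. The reverse held in 95, or 3.12% (2.53 to 3.80). These shares were not computed for other regions with peaks of both mutants, so they are not a trait of this class.

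Chromosomes did not carry these regions in equal measure. The 8 large autosomes, those whose largest peak position was at or above 30 Mb, held 3.48 regions of both mutants only per Mb, the 20 smaller chromosomes 1.65 and chromosome Z 1.71. Over all merged regions the densities were 103, 85.7 and 60.6 per Mb in the same order. The mutants' own peaks were also sparser on the smaller chromosomes. All Q317K peaks stood at 27.2, 17.8 and 15.6 per Mb, and all Q317R peaks at 23.9, 13.6 and 11.9. PITX1-only regions, in contrast, stood at 31.4, 42.4 and 20.5 per Mb. Smaller chromosomes held 369 of the 3042 regions, or 12.1% (10.99 to 13.3), against a background of 19.3% over all merged regions, which includes the 27.9% (27.4 to 28.4) of PITX1-only regions. The share was near the 12.7% (11.8 to 13.6) of Q317R and HOXD13 wt only and the 11.5% (9.95 to 13.2) of the 3 HOXD13 forms, and lower than the 22.0% (20.4 to 23.6) of Q317K and PITX1 only. It was also lower than in regions of Q317K only, 16.1% (15.5 to 16.7), and of Q317R only, 14.4% (13.7 to 15.2).

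Set against the mutants' own peaks, the smaller chromosomes again gave less. There, 9.27% (8.39 to 10.2) of Q317K peaks and 12.2% (11.04 to 13.4) of Q317R peaks lay in regions of both mutants only, compared with 12.9% (12.4 to 13.3) and 14.6% (14.1 to 15.2) on the large autosomes. Chromosome 2 had the highest share of merged regions of both mutants only, 3.76%, or 586 of 15598. Chromosomes 16, 25, 26 and W had none, among 6, 59, 312 and 1 merged regions. For chromosome 26 a count of 3 of 312 would be 0.962%, an approximate upper bound and not an exact interval. On chromosome Z, 127 of 4503 regions, or 2.82%, were of this class. Base composition and copy number, in which these chromosomes differ, were not measured here and their part was not tested.

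**Figure D5:**
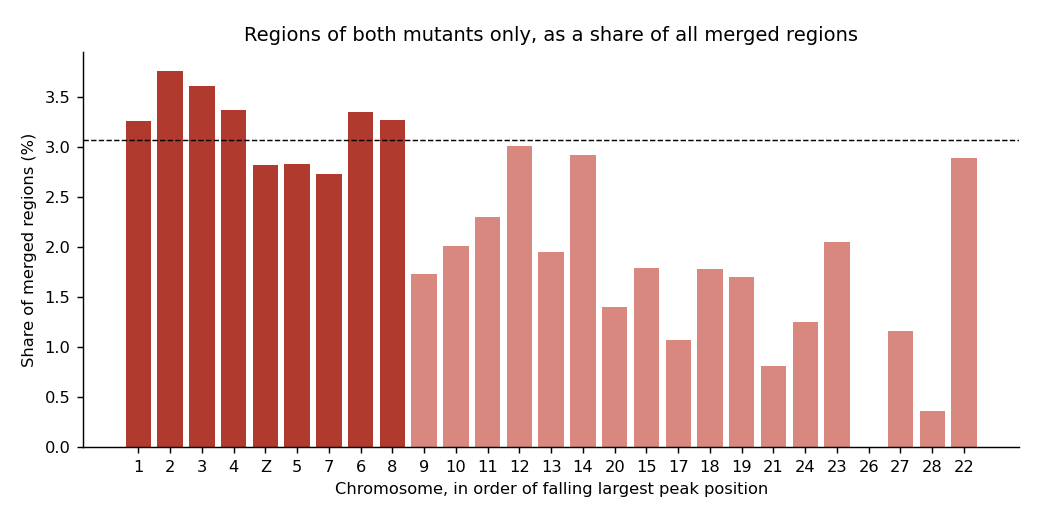
Bars give regions of both mutants only as a share of all merged regions (y axis, percent) on each chromosome, ordered by falling largest peak position (x axis), with chromosomes under 30 Mb in a paler shade and chromosomes 16, 25 and W left out. The dashed line marks the 3.07% over all chromosomes. Every chromosome under 30 Mb lies below it, as do the larger chromosomes 5 (2.83%), 7 (2.72%) and Z (2.82%).

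Most regions of both mutants only had no other such region within 50 kb, and their spacing was not compared with random placement. The nearest other such region was 90.1 kb away at the median, within 10 kb for 306 regions, or 10.1%, and within 50 kb for 1054, or 34.6%. Regions of Q317K and PITX1 only, of a like number, had a median of 87.0 kb and 35.7% within 50 kb. Those of Q317R and HOXD13 wt only, which were more numerous, had 46.3 kb and 51.9%. No window of 100 kb held more than 5 of the regions, and 4 windows held that many: chromosome 1 from 105879764 to 105940013, chromosome 5 from 4000283 to 4078129 and from 33141441 to 33237238, and positions 29745775 to 29825858 of chromosome 6. The window on chromosome 1 also held 2 HOXD13 wt peaks and 1 PITX1 peak. The first of the pair on chromosome 5 held 8 HOXD13 wt peaks and no PITX1 peak, and the other held 4 HOXD13 wt and 7 PITX1 peaks. The window on chromosome 6 held 5 HOXD13 wt peaks and no PITX1 peak.

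Under the rule no listed wild-type peak overlaps these regions. Distances to the nearest such peak were compared with other classes and not with random placement. The nearest HOXD13 wt peak lay 7.82 kb from a region of both mutants at the median and the nearest PITX1 peak 11.2 kb away. A HOXD13 wt peak lay within 1000 bp of 269 regions, or 8.84%, and a PITX1 peak within 1000 bp of 254, or 8.35%. For regions of Q317K only the shares were 8.72% for HOXD13 wt and 8.20% for PITX1, and for those of Q317R only 9.87% and 7.14%, so regions of both mutants lay about as near to the wild-type lists as regions of either mutant alone. Their nearest neighbour of any class was a PITX1-only region in 24.9% (23.3 to 26.4) of cases, against 34.3% of all regions, and another region of both mutants only in 4.44% (3.73 to 5.23), against 3.07%. Other classes also stood above their share of all regions. These included HOXD13 wt only, 26.7% against 23.7%, Q317K only, 17.1% against 15.1%, and Q317R only, 10.9% against 8.92%. Regions of Q317K and PITX1 only stood below theirs, 2.20% against 2.56%. A raised share was thus not particular to regions of both mutants only.

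At the edge of the rule, the smallest overlaps between a Q317K and a Q317R peak were 5, 22 and 27 bp, at positions 32606772 to 32607915 of chromosome 7, 44887503 to 44889373 of chromosome 3 and 76595041 to 76596169 of chromosome 2. Their summits were 649, 1162 and 641 bp apart. Just outside, the smallest gaps between a region of Q317K only and one of Q317R only were 12, 13 and 29 bp, and 36 regions of Q317K only had such a gap of at most 100 bp. Toward the wild type, the regions nearest a HOXD13 wt peak were 11, 13 and 14 bp from it, at positions 13624619 to 13625339 of chromosome 11, 9329982 to 9330921 of chromosome 1 and 29226193 to 29229873 of chromosome 2. The last was also the widest of all, at 3681 bp, followed by regions of 3677 bp on chromosome 3 from 83603676 to 83607352 and 3561 bp on chromosome 1 from 178910368 to 178913928. Just outside on that side, 9 regions of the 3 HOXD13 forms overlapped their HOXD13 wt peak by at most 100 bp, the smallest by 10 bp.

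The unequal thresholds of the lists touch the class itself. The HOXD13 wt list stopped at a −log10 p of 52.1, a level that 2186 of the Q317K peaks in these regions and 1676 of the Q317R peaks reached. Both peaks reached it in 1277 regions, or 42.0% (40.2 to 43.8). When all lists were cut at that value, 1316 regions held both mutants only, and 1279 of them overlapped a region of the full set. At that cut the mutants' summits were 33 bp apart at the median and 82.6% were within 100 bp, while Q317R and HOXD13 wt had 33 bp and 80.9%, and Q317K and PITX1 119 bp and 45.3%.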

How the data were processed

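Members and comparisons were chosen with earlier results of these data known. The authors' peak caller was MACS2, per the submitters' processing notes. Each deposited peak has a summit offset, a fold enrichment ratio, a −log10 p and a score (10 times the −log10 p, cut to a whole number), and −1 as q-value in all rows. The sources used here do not state aligner, build, thresholds, use of inputs or pooling of replicates, though the series design speaks of biological replicates; inputs were not analysed here. RNA values were deposited as RPKM, per the file headers, and the transcript of highest mean is given.

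Peaks overlapping by at least 1 bp were merged, and bedtools 2.31.1 gave the same 99237 regions and 3042 members. Where a region held 2 peaks of a list, the overlapping pair with closest summits was used. Named regions followed a rule on ranks, ratios, widths and distances. Fold and −log10 p describe peaks within a list. No test was run, as each factor had 1 list. Positions are 1-based. Merging and pairing were tested on simulated data. Alternatives changed the thresholds, overlap, windows and chromosome limit. Scripts used Python 3.11.15, numpy 2.4.6, pandas 2.3.3, scipy 1.17.1 and matplotlib 3.10.9.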

Additional observations from a re-analysis of the deposited data

How the results depend on the processing

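No paired analysis was possible because each factor had 1 peak list; for the same reason no replicate could be left out. Of 53 values recomputed, 27 stayed within 1.5 times a count or within the 95% interval of a median or share, and 26 moved. Both counts include settings whose outcome was fixed in advance, so they do not measure stability. Leaving out random, unplaced or mitochondrial sequences could change nothing, as they held no peak. Changing the window or the chromosome limit redefines the share itself. The number of regions, 3042, was 1316 with one common −log10 p minimum and 447 with a fold of at least 10 in all lists. It ranged from 2388 with summits within 100 bp to 3450 with lists of equal length, 21396 peaks, under the others, and 2777 of those 3450 overlapped a region of the full set. The median summit distance of 36 bp was 33 bp with the common minimum, 28 bp with the fold minimum, 43 bp with peaks up to 1000 bp apart merged and 21 bp with a longer peak of 400 to 600 bp. The median Q317K fold was 10.6 with the common minimum, 9.45 with equal length and 13.3 with the fold minimum, and the median Q317R fold 9.13 with the common minimum and 11.7 with the fold minimum; these settings drop weaker peaks by construction. With summits within 100 bp the median Q317K fold was 9.27, and the cause was not tested. Median width was 859.5 bp with the common minimum, 880.0 bp with equal length, 982 bp with the fold minimum, 761.5 bp with summits within 100 bp and 938 bp with merging over 1000 bp. The share with a neighbour within 50 kb was 18.7%, 38.8%, 7.16%, 28.0% and 30.6% under these settings in the same order, and 10.1% within 10 kb and 75.6% within 200 kb. Settings that keep fewer regions leave fewer neighbours by construction, so these shares do not measure a change in clustering. The share on smaller chromosomes stayed between 11.6% and 12.9% except where the limit itself was changed, 5.92% under 20 Mb and 23.3% under 40 Mb. No peak lay on a random, unplaced or mitochondrial sequence, so leaving those out changed nothing.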
